A study of Mus musculus with 11 samples.

Results

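Kruppel-like factors (KLFs) were followed in mouse embryonic fibroblasts (MEFs) that had received reprogramming transgenes. The members are the 8 genes Klf2, Klf3, Klf4, Klf5, Klf6, Klf7, Klf9 and Klf10, taken by gene symbol from 19938 measured genes, and the array held 1 probe set for each of them, Klf4 included. The data came from 11 arrays in 3 groups, with 1 array for each construct. The first group held 8 polycistronic cassettes (OKN-HAMS, WTSI, EB-C5, STEMCCA, MKOS, OK+9MS, OKMS and OSKM), which encode several reprogramming factors on a single transcript. The second held Klf4 alone as Klf4S and Klf4L, and the third held lacZ, a bacterial enzyme with no role in reprogramming. All constructs were piggyBac transposons (PB-TAC), which a transposase inserts into the genome, and doxycycline switches on the transgene along with mCherry, a red fluorescent reporter. All MEFs were male F1 hybrids taken at 13.5 dpc, with a homozygous ROSA-rtTA mother (C57Bl6 backcross) and a homozygous Nanog-GFP BAC transgenic father (C57Bl6/129SV hybrid), and carried both alleles. Every culture, lacZ included, was given 1 ug/mL doxycycline in ES cell medium. Cassette and Klf4 cells were sorted for mCherry on day 6, whereas lacZ cells were taken unsorted on day 2, so where a construct is set against lacZ the transgene, the day and the sorting cannot be told apart. The labels mark OK+9MS (beside OKMS) and Klf4L (titled Klf4+9, beside Klf4S) with +9, taken here as the 9 additional residues of the longer Klf4 protein, and do not name the Klf4 form of the other 6 cassettes.

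KLFs are transcription factors whose closely similar zinc fingers, at the C-terminal end, bind GC-rich and CACCC-type DNA elements, while their divergent N-terminal parts activate or repress. Klf4 is one of the classical reprogramming factors, beside Oct4 (Pou5f1), Sox2 and Myc, and it also drives differentiation of epidermis. Klf2, Klf4 and Klf5 act redundantly in the self-renewal of mouse embryonic stem cells. In fibroblasts several KLF genes are early response genes whose RNA changes quickly with serum and growth factor signals.

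The promoters of Klf4, the factor carried by the constructs, and of Klf2 and Klf7, the members that differed from lacZ below, are shown to place the family's own recognition element. Capitals mark CACCC on either strand (CACCC or GGGTG). Each window runs from 250 bases before to 50 bases after the RefSeq start, on the gene's strand, 5' to 3' (RefSeq, build GRCm38.p6). Klf4 lies at chr4:55532426-55532725 on the minus strand, Klf2 at chr8:72318812-72319111 on the plus strand and Klf7 at chr1:64121340-64121639 on the minus strand. The Klf7 window sits at a start within the span listed for that gene, whereas those of Klf4 and Klf2 sit at the outer start.
Klf4: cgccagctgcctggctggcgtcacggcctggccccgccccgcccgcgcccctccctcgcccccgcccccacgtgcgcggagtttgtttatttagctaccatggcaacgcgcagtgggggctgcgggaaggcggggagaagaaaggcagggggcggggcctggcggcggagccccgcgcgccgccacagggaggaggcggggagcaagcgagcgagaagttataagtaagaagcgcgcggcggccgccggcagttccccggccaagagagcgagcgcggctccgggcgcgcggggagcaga
Klf2: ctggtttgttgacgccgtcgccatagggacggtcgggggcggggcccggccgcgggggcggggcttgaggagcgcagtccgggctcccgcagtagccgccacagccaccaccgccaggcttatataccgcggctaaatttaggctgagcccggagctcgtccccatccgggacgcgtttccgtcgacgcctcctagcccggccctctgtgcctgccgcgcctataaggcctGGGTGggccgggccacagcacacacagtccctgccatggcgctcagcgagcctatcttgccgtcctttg
Klf7: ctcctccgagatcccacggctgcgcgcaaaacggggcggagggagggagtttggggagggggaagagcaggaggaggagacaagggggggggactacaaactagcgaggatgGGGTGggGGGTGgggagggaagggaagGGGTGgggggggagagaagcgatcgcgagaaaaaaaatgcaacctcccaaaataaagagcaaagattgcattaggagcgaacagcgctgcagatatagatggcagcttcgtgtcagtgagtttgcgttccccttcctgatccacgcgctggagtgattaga
The Klf4 window held 0 matches, the Klf2 window 1 and the Klf7 window 3. The element is common, since 57.5% of 32851 mouse promoter windows of this length held at least 1. The 300-base windows of the other members with an entry held 5 matches for Klf3, 0 for Klf6 and 1 for Klf9. The other common KLF and SP element, GGGCGG (or CCGCCC on the other strand), had 4 matches in the Klf4 window, 2 in that of Klf2 and 1 in that of Klf7, none of which overlapped a CACCC match, against 35.7% of all windows with at least 1. A match is a description of these letters and shows no binding.

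Signals are log2 values from the authors' RMA processing, so a difference of 1 is a 2-fold difference, and levels of different genes cannot be set against each other because each has its own probes. Array medians lay between 7.188 and 7.269, and all member signals lay above them. Of the 12 fibroblast markers, none was under 6 on all arrays, and their mean level lay between 10.46 and 11.42 in the cassettes, at 11.77 in both Klf4 constructs and at 10.80 in lacZ. Of the 6 macrophage markers, Ptprc and Adgre1, which define blood cells and macrophages, stayed under 6 on every array, a level that cannot be told from background here, and Csf1r, Lyz2 and Tyrobp lay between 5.56 and 6.56. Cd68, a lysosomal protein, was the exception, with cassette signals between 8.11 and 9.62, and with 8.43 in Klf4S and 8.52 in Klf4L, against 8.19 in lacZ. Differences between groups were tested with limma over all 19938 genes in a fit of all 11 arrays, with calls at an adjusted p under 0.05. The replicates of a group are different constructs measured once, so p-values measure the spread between constructs, and the single lacZ array is assumed to vary like the others. The number of arrays limits the precision.

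The Klf4 signal was slightly higher in every construct than in lacZ, but the difference did not pass the test. The probe set (10513008) read 9.999 in OSKM, 9.94 in OKMS, 9.81 in OK+9MS, 9.65 in MKOS, 9.64 in STEMCCA, 9.90 in EB-C5, 10.20 in WTSI and 10.19 in OKN-HAMS. It read 9.93 in Klf4S and 9.71 in Klf4L, against 9.47 in lacZ. All 10 constructs thus lay above lacZ, by 0.17 (STEMCCA) to 0.73 (WTSI), which 8.77% of all genes also did. The cassettes averaged 9.92 ± 0.21 (SD, n = 8) and Klf4 alone 9.82 ± 0.16 (SD, n = 2). The difference from lacZ was 0.45 ± 0.21 SE for the cassettes (95% interval -0.02 to 0.91, limma adjusted p = 0.34) and 0.35 ± 0.24 SE for Klf4 alone (-0.19 to 0.88, limma adjusted p = 0.693). The cassettes and Klf4 alone differed by 0.10 ± 0.15 SE (-0.25 to 0.44, limma adjusted p = 0.741). The upper bound of 0.91 for the cassettes lies under a 2-fold difference.

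The constructs did not separate by Klf4 signal into cassettes and Klf4 alone. From high to low the order was WTSI, OKN-HAMS, OSKM, OKMS, Klf4S, EB-C5, OK+9MS, Klf4L, MKOS, STEMCCA and lacZ. None of the 10 gaps between neighbours in this order exceeded the spread within groups (SD 0.21), and the widest was 0.19, between OKN-HAMS and OSKM. The lacZ array stood 0.17 below STEMCCA, its nearest neighbour. Both constructs with the added residues read lower in Klf4 than their partners, OK+9MS by -0.13 against OKMS and Klf4L by -0.22 against Klf4S. Pou5f1, a second factor of the cassettes, read 11.89 to 13.22 in the cassettes, 6.06 in Klf4S and 5.84 in Klf4L, against 6.09 in lacZ. Sox2 read 6.22 to 7.76 in the cassettes, 6.24 in Klf4S and 6.33 in Klf4L, against 6.79 in lacZ. It lay below lacZ in 6 of the 8 cassettes. Myc read 9.86 to 10.91 in the cassettes, 9.05 in Klf4S and 8.65 in Klf4L, against 9.54 in lacZ. Where the Klf4 probes lie in the transcript is not stated in these sources, and how far the signal reflects transgene or endogenous RNA cannot be told apart.

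**Figure D1:**
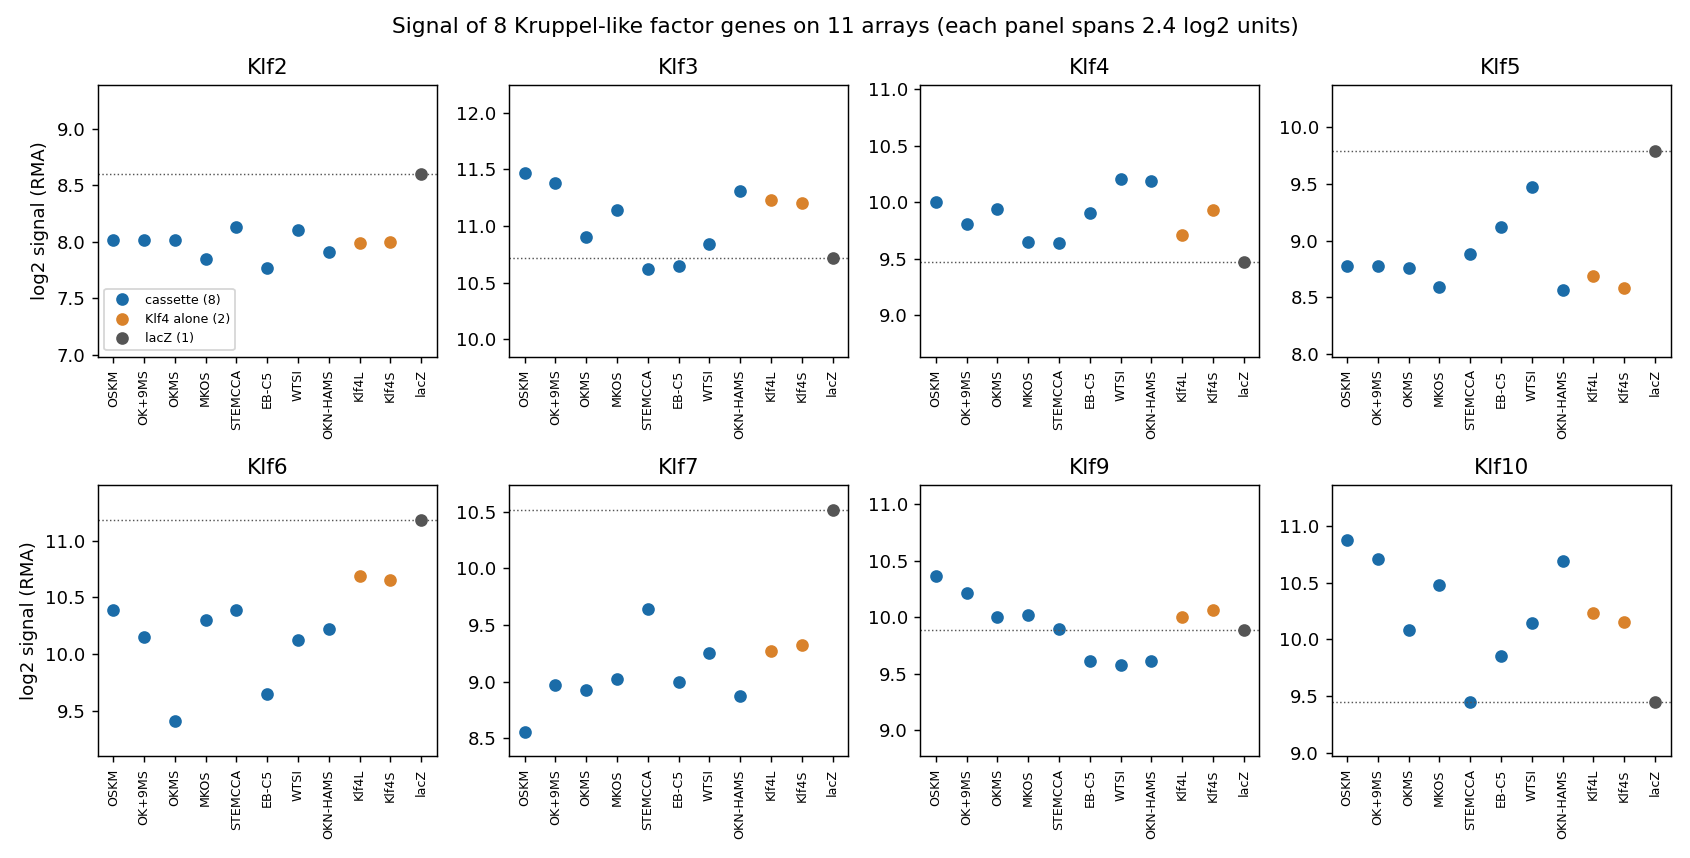
Log2 signal (RMA) of the 8 genes on each of the 11 arrays, 1 point per array, with the 8 cassettes in blue, Klf4 alone in orange and lacZ in grey. The dotted line is the lacZ level, and all 10 constructs lie below it for Klf2, Klf5, Klf6 and Klf7 and above it for Klf4.

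Klf2, Klf5, Klf6 and Klf7 had lower signals in every construct than in lacZ, and of these Klf2 and Klf7 fell in the cassettes by the test over all genes. Of the 8 members, 4 lay below lacZ in all 10 constructs, against 14.5% of all genes and beside 20.8% that lay below in all 8 cassettes, where the members were again 4 of 8. The 9 KLF genes outside the member list did not share this. Of these, 0 lay below lacZ in all 10 constructs, and 0 did so in all 8 cassettes. In the cassettes 2 members were called, both lower, against 2.05% of all genes called and 1.59% called lower. Klf4 was the 1 member above lacZ in all 8 cassettes, as were 13.3% of all genes. The 8 members had a median difference from lacZ of -0.30 in the cassettes, beside -0.01 over all genes.

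Klf7, a factor known from neurons and adipocyte precursors, showed the largest of these differences. It read from 8.56 (OSKM) to 9.64 (STEMCCA) in the cassettes with a median of 8.98, 9.32 in Klf4S and 9.27 in Klf4L, against 10.52 in lacZ. The lacZ array stood apart, 0.89 above the next array (STEMCCA), which is wider than the within-group SD of 0.29. In limma the difference of the cassettes from lacZ was -1.50 ± 0.29 SE (8 arrays and 1 array, adjusted p = 0.0344), a 2.82-fold lower signal, with 8 of 8 cassettes below. In Klf4 alone the difference was -1.23 ± 0.33 SE (95% interval -1.97 to -0.49, limma adjusted p = 0.15), with both arrays below lacZ. The call in the cassettes was lost without OKMS, OK+9MS, MKOS, EB-C5, OKN-HAMS or either Klf4 construct, where the adjusted p reached at most 0.0682, while the difference stayed between -1.58 and -1.43.

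Klf2, an endothelial quiescence factor that also belongs to the network of embryonic stem cells, was the most even member. It read from 7.77 (EB-C5) to 8.13 (STEMCCA) in the cassettes with a median of 8.02, 8.003 in Klf4S and 7.992 in Klf4L, against 8.60 in lacZ. The 10 constructs lay within 0.36 of each other and did not reach the lacZ level. In limma the difference of the cassettes from lacZ was -0.62 ± 0.12 SE (adjusted p = 0.038), a 1.54-fold lower signal. In Klf4 alone the difference was nearly the same size, -0.60 ± 0.14 SE (95% interval -0.92 to -0.28), but missed the threshold (limma adjusted p = 0.0997). Without OSKM, OKMS, OK+9MS, OKN-HAMS or either Klf4 construct the cassette call was lost, with an adjusted p of at most 0.0744 and a difference between -0.64 and -0.59. Cassettes and Klf4 alone differed by -0.02 ± 0.09 SE (95% interval -0.22 to 0.19, limma adjusted p = 0.93).

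Klf5, which promotes proliferation in epithelia and is needed for self-renewal of embryonic stem cells, read from 8.56 (OKN-HAMS) to 9.47 (WTSI) in the cassettes with a median of 8.78, 8.58 in Klf4S and 8.69 in Klf4L, against 9.79 in lacZ. WTSI was the cassette closest to lacZ, 0.32 below it, and stood 0.35 above EB-C5, the next array. The difference from lacZ was -0.92 ± 0.28 SE in the cassettes (limma adjusted p = 0.14) and -1.15 ± 0.32 SE in Klf4 alone (limma adjusted p = 0.16). Without WTSI the cassettes differed from lacZ by -1.01, and Klf5 then passed the test (limma adjusted p = 0.0332). Over all 10 fits with 1 array left out, the difference ran from -1.007 to -0.877 and the limma adjusted p from 0.0332 to 0.21. No promoter entry for Klf5 was matched here.

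Klf6, an early response gene and growth suppressor, read from 9.41 (OKMS) to 10.39 (OSKM) in the cassettes with a median of 10.18, 10.65 in Klf4S and 10.69 in Klf4L, against 11.18 in lacZ. The 3 groups did not overlap, with lacZ highest, Klf4 alone next and the 8 cassettes lowest. Over all genes, 14.5% had all 10 constructs below lacZ and 17.8% had all 8 cassettes below both Klf4 constructs. The share of genes with both was not counted. The difference from lacZ was -1.10 ± 0.33 SE in the cassettes (limma adjusted p = 0.138) and -0.51 ± 0.38 SE in Klf4 alone (limma adjusted p = 0.735), neither past the threshold.

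Of the 6 smooth muscle markers, all 6 also lay below lacZ in all 8 cassettes, as did 20.8% of all genes. Their mean level was 8.38 to 9.44 in the cassettes, 9.80 in Klf4S and 9.69 in Klf4L, against 10.41 in lacZ. In the cassettes limma called 2 of the 6, both lower, beside 1.59% of all genes called lower. Desmin (Des), an intermediate filament of muscle, fell by 2.09 in the cassettes against lacZ (limma adjusted p = 0.00571), and Myocd, the smooth muscle coactivator, fell by 1.30. The part of these changes in the KLF differences was not tested. In bulk cells, fewer cells of a type and less RNA per cell cannot be told apart.

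**Figure D2:**
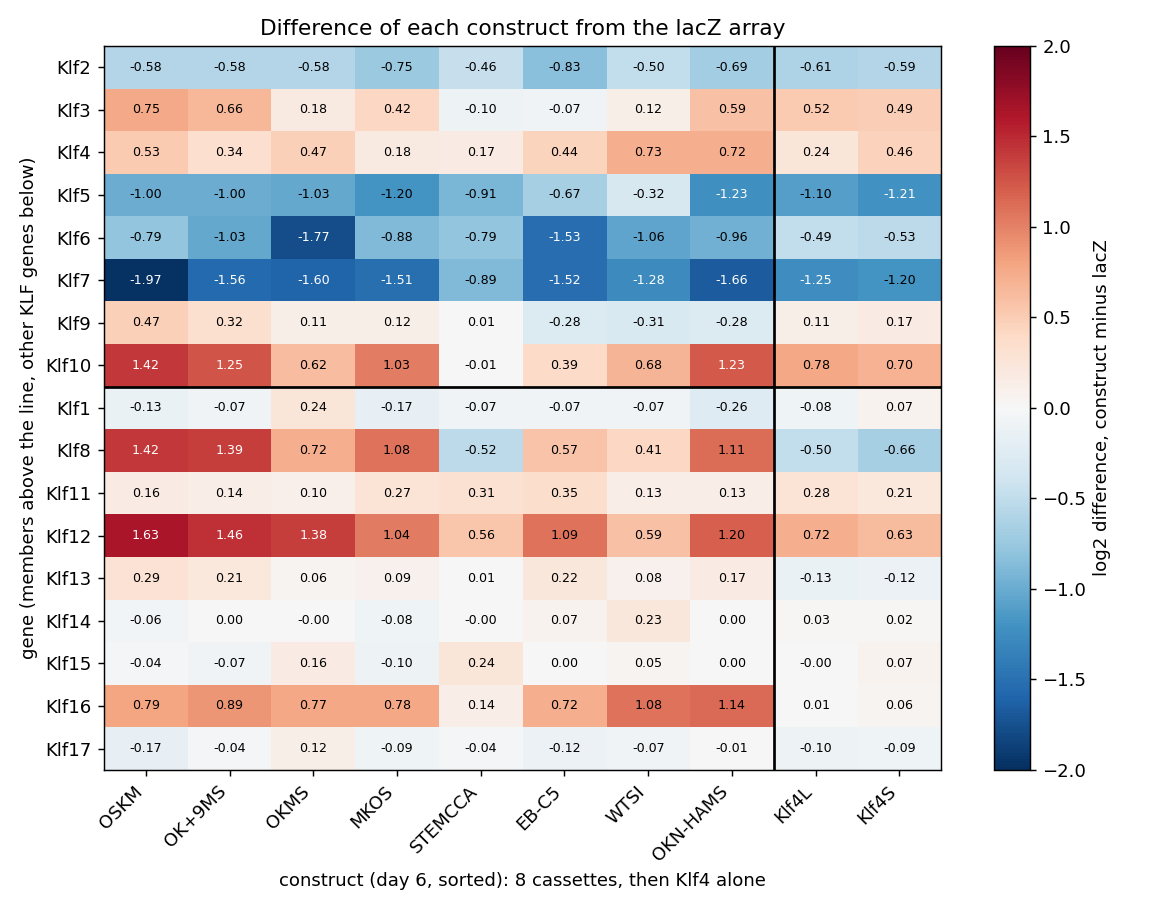
Log2 difference of each day-6 construct from the lacZ array, for the 8 members (above the line) and the 9 other KLF genes of the mouse list (below). Red is higher and blue lower than lacZ; Klf7 is 0.89 to 1.97 lower, and Klf10 is 1.42 higher in OSKM and level with lacZ in STEMCCA.

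Klf10, Klf3 and Klf9 did not pass the test against lacZ, and each spread among the cassettes. Klf10, also known as TIEG1, an early response gene of TGF-beta signalling, read from 9.45 (STEMCCA) to 10.88 (OSKM) in the cassettes with a median of 10.31, 10.15 in Klf4S and 10.23 in Klf4L, against 9.45 in lacZ. OSKM, OK+9MS (10.71), OKN-HAMS (10.69) and MKOS (10.48) were the highest arrays, above both Klf4 constructs. Klf10 lay above lacZ in 9 of the 10 constructs, by 0.39 (EB-C5) to 1.42 (OSKM), and STEMCCA was level with lacZ (-0.01). Its SD among cassettes was 0.49, larger than that of 93.3% of all genes. The difference from lacZ was 0.83 ± 0.45 SE in the cassettes (limma adjusted p = 0.427) and 0.74 ± 0.52 SE in Klf4 alone (limma adjusted p = 0.701).

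Klf3, a repressor that recruits the CtBP corepressors, read from 10.62 (STEMCCA) to 11.47 (OSKM) in the cassettes with a median of 11.02, 11.20 in Klf4S and 11.23 in Klf4L, against 10.72 in lacZ. OSKM, OK+9MS (11.38) and OKN-HAMS (11.31) were again the 3 highest arrays, while STEMCCA and EB-C5 (10.65) lay below lacZ. The difference from lacZ was 0.32 ± 0.31 SE in the cassettes (limma adjusted p = 0.727) and 0.50 ± 0.35 SE in Klf4 alone (limma adjusted p = 0.705). None of the 10 neighbouring pairs in the order of Klf3, nor of Klf10, was separated by more than the within-group SD (0.31 for Klf3 and 0.46 for Klf10).

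Klf9, a glucocorticoid and thyroid hormone response gene, read from 9.58 (WTSI) to 10.36 (OSKM) in the cassettes with a median of 9.95, 10.058 in Klf4S and 10.004 in Klf4L, against 9.89 in lacZ. WTSI, OKN-HAMS (9.61) and EB-C5 (9.61) lay below lacZ and the other 5 cassettes above it. The difference from lacZ was 0.02 ± 0.27 SE in the cassettes (95% interval -0.59 to 0.62, limma adjusted p = 1.00).

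The mean level of the keratinocyte list was high on the arrays that read high in Klf10, mainly through the keratins Krt14 and Krt6a. The mean of the 8 markers was 8.14 in OK+9MS, 7.89 in OKN-HAMS, 7.84 in OSKM, 7.63 in MKOS and 6.42 to 6.66 in the other cassettes, 7.40 in Klf4S and 7.58 in Klf4L, against 6.53 in lacZ. Krt14 read 12.48 in OSKM, 12.42 in OK+9MS, 12.34 in OKN-HAMS and 10.57 in MKOS, against 7.01 in lacZ, and Krt6a read 9.66, 10.56, 10.21 and 9.08 on those arrays, against 5.51 in lacZ. Both Klf4 constructs, which read lower in Klf10 than MKOS, were also above lacZ. Krt14 read 10.84 in Klf4S and 11.37 in Klf4L, both above MKOS, and Krt6a read 7.88 and 8.46. Krt10, a keratin of differentiated epidermis, lay below lacZ (6.97) in all 10 constructs, at 6.78 to 6.95, and Trp63, the epidermal master regulator, read 6.88 to 7.17 in the constructs, against 6.99 in lacZ. Cd68 was also above 9 in OSKM (9.61), OK+9MS (9.62), OKN-HAMS (9.60), MKOS (9.16) and WTSI (9.01). The part of these genes in the Klf10 and Klf3 values was not tested.

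Cassettes and Klf4 alone share the day and the mCherry sort. Between them 0 of the 8 members passed the limma test, where 14.5% of all genes did (8.12% lower in the cassettes). That share rests on both Klf4 arrays, since of 2885 genes called in all, 104 were called without Klf4S and 92 without Klf4L. At an unadjusted p under 0.05 the members counted 1 of 8, beside 30.6% of all genes. That was Klf6, with a difference of -0.60 ± 0.24 SE (95% interval -1.14 to -0.05, limma adjusted p = 0.131). All 8 cassettes lay below both Klf4 constructs, as did 17.8% of all genes. The exact two-sided permutation test over the 10 arrays gave p = 0.0444 for Klf6, the smallest value that 8 against 2 arrays allow, not adjusted for the 8 members tested. For the other 7 members the exact p lay between 0.222 and 1. The widest interval among them was that of Klf10 (difference 0.09, -0.66 to 0.84). Of the fibroblast markers, 11 of 12 likewise lay below both Klf4 constructs in all 8 cassettes. Limma called the matrix collagen chains Col3a1 (cassettes minus Klf4 alone, -1.19) and Col1a2 (-0.99). Against lacZ, neither mean was reduced. Col3a1 differed from lacZ by 1.16 in the cassettes and 2.35 in Klf4 alone, and Col1a2 by 0.18 and 1.17, none of which passed limma. The part of these genes in the Klf6 difference was not tested.

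**Figure D3:**
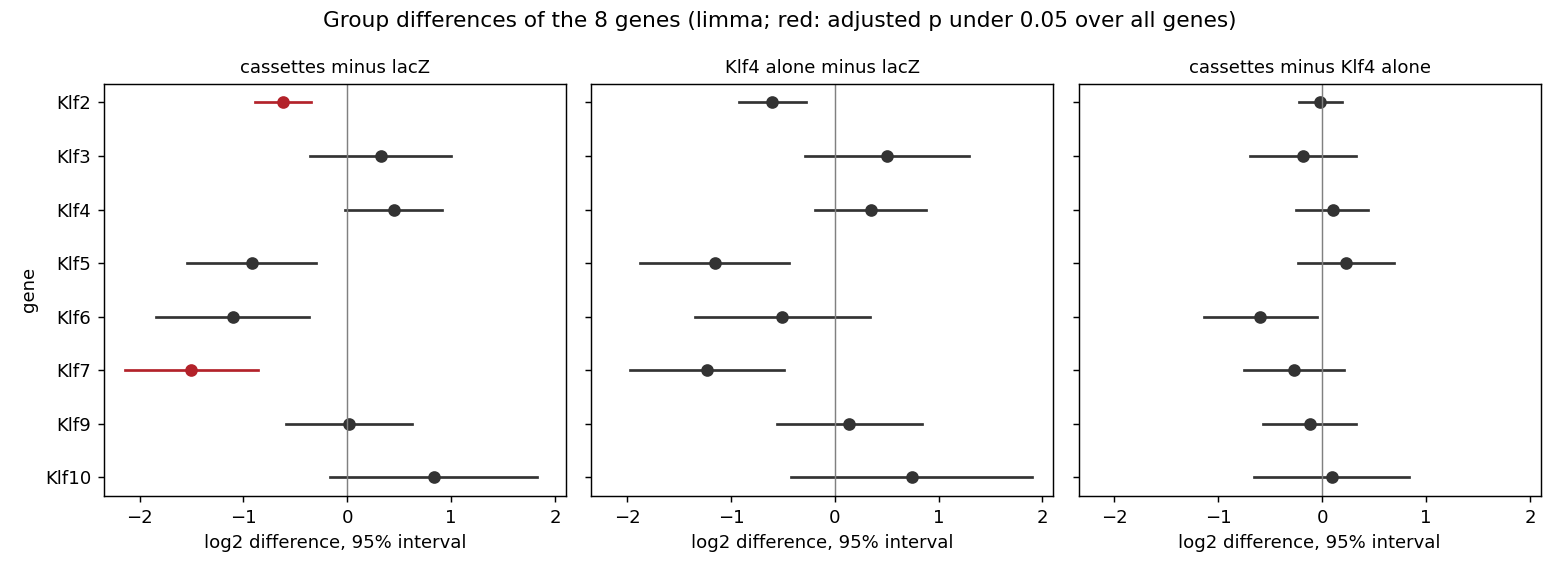
Log2 differences between groups for the 8 genes with 95% intervals from limma, in 3 panels (cassettes minus lacZ, Klf4 alone minus lacZ, cassettes minus Klf4 alone). Red marks an adjusted p under 0.05 over all genes, which Klf2 and Klf7 reach in the first panel and no member reaches in the other two.

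In Klf4 alone against lacZ, limma called 0 of the 8 members, where it called 0.747% of all genes (0.476% lower), and 3 members (Klf2, Klf5 and Klf7) had an unadjusted p under 0.05, as did 11.5% of all genes. The cassette and Klf4 alone comparisons share the single lacZ array, so their values are not independent. Side by side, the difference from lacZ was -0.62 in the cassettes and -0.60 in Klf4 alone for Klf2, -0.92 and -1.15 for Klf5, -1.10 and -0.51 for Klf6, and -1.50 and -1.23 for Klf7.

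The added residues were examined in the 2 pairs whose labels name them. In the cassette pair, Klf6 read 10.15 in OK+9MS against 9.41 in OKMS, a difference of 0.74 or 1.67-fold, and Klf10 read 10.71 against 10.08, a difference of 0.63 or 1.55-fold. These were 2 of 8 members at 1.5-fold or more above OKMS, against 5.87% of all genes, and 0 of 8 lay as far below, against 3.63%. Klf3 followed with 11.38 in OK+9MS against 10.90 in OKMS, a difference of 0.49. In the Klf4 pair no member reached 1.5-fold in either direction. There Klf6 differed by 0.04, Klf10 by 0.08 and Klf3 by 0.03 (Klf4L minus Klf4S). The Klf4 arrays were closely alike over all genes, with an SD of the difference of 0.126, against 0.418 in the cassette pair, and 0.0903% of genes were 1.5-fold or more above Klf4S and 0.0301% as far below. Each difference rests on 1 array a side and has no replicate check.

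An additive limma fit of both pairs, with 1 residual degree of freedom, called 0 of 8 members and 0 of 19938 genes, and 0 members and 219 genes had an unadjusted p under 0.05. The fitted difference was 0.39 ± 0.22 SE for Klf6 (95% interval -0.29 to 1.07), 0.36 ± 0.18 SE for Klf10 (-0.20 to 0.91) and -0.17 ± 0.09 SE for Klf4 (-0.45 to 0.10), all at a limma adjusted p of 0.943. Whether the effect differs between cassette and Klf4 alone could not be tested, because such a fit leaves no residual degrees of freedom. Of the 8 keratinocyte markers, 4 were 1.5-fold or more higher in OK+9MS than in OKMS, against 5.87% of all genes. So were 4 of the 12 fibroblast markers and 6 of 15 measured genes known as Klf4 targets. By contrast, 0 of the 6 smooth muscle markers and 0 of 8 measured SP genes were. The part of these genes in the Klf6 and Klf10 values was not tested.

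**Figure D4:**
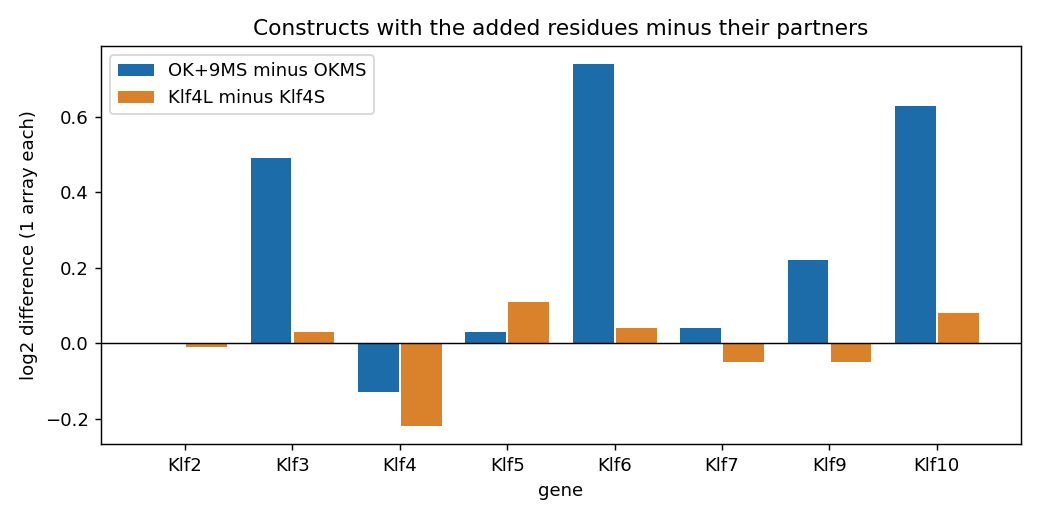
Log2 difference between constructs with the added residues and their partners for the 8 genes, OK+9MS minus OKMS in blue and Klf4L minus Klf4S in orange, 1 array a side. Klf6 (0.74) and Klf10 (0.63) are higher in OK+9MS than in OKMS, and the Klf4 pair stays within 0.22 of 0.

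The rest of the family and its known partners were read from lists of genes. Of all genes, 15.5% had an unadjusted p under 0.05 in limma in the cassettes against lacZ. The share was 11.5% in Klf4 alone against lacZ and 30.6% in the cassettes against Klf4 alone. The unadjusted counts of each list below stand beside these shares. Of the 9 other KLF genes, 0 passed limma against lacZ in either group (2 in the cassettes and 0 in Klf4 alone at an unadjusted p under 0.05), while 2 were higher in the cassettes than in Klf4 alone, against 6.35% of all genes. Their median difference was 0.14 for cassettes minus lacZ (all genes -0.01) and 0.04 for cassettes minus Klf4 alone (all genes -0.02). Klf16, a repressor, read from 9.94 (STEMCCA) to 10.94 (OKN-HAMS) in the cassettes, 9.85 in Klf4S and 9.80 in Klf4L, a difference of 0.76 ± 0.21 SE (limma adjusted p = 0.0397). All 8 cassettes lay above both Klf4 constructs for Klf16, as did 12.3% of all genes, though STEMCCA lay close to them. Klf13 differed by only 0.27 ± 0.07 SE (limma adjusted p = 0.0398). Klf8 and Klf12, singled out after their values were seen, had among the widest ranges. Klf8 read from 8.50 (STEMCCA) to 10.44 (OSKM) in the cassettes, 8.36 in Klf4S and 8.51 in Klf4L, against 9.02 in lacZ, and its SD among cassettes exceeded that of 96.7% of genes. Klf12 was above lacZ in all 10 constructs, by 0.56 (STEMCCA) to 1.63 (OSKM). With Klf11 and Klf16, 3 of the 9 genes lay above lacZ in all 10 constructs, against 8.77% of all genes. Klf8 and Klf12 are both repressors that bind CtBP, and neither passed limma in any comparison.

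Of the 8 measured SP genes, relatives with the same type of zinc fingers, 0 passed limma in any comparison (3 at an unadjusted p under 0.05 in the cassettes and 2 in Klf4 alone against lacZ). Among 18 measured co-regulators and ubiquitin ligases of KLF proteins, 0 passed against lacZ (2 at an unadjusted p under 0.05 in the cassettes and 1 in Klf4 alone), and Sap30, a subunit of the SIN3 corepressor complex, was the 1 gene called higher in the cassettes than in Klf4 alone, by 1.34 ± 0.31 SE (limma adjusted p = 0.0241), beside 6.35% of all genes called higher. Among 19 upstream regulators, 0 passed against lacZ (4 at an unadjusted p under 0.05 in each group), and 2 had a called lower signal in cassettes than in Klf4 alone, the TGF-beta receptor Tgfbr2 (-1.62) and its signal transducer Smad3 (-0.49), a share near the 8.12% of all genes called lower there. The median of these 19 genes was -0.29 for cassettes minus lacZ and -0.34 for cassettes minus Klf4 alone.

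Among 15 measured genes known as Klf4 targets, 0 passed against lacZ. At an unadjusted p under 0.05 in limma they counted 5 in the cassettes, beside 15.5% of all genes, and 0 in Klf4 alone, beside 11.5%. Odc1, the polyamine synthesis enzyme that Klf4 is known to repress, was the 1 gene of them called in the cassettes against Klf4 alone. It was higher by 1.16 ± 0.25 SE (limma adjusted p = 0.0193), so the list's share was near the 6.35% of all genes called higher. Odc1 had 2 probe sets, and the value is that of the one with the higher mean. Odc1 is also a known Myc target, and Myc read 9.86 to 10.91 in the cassettes, 9.05 in Klf4S and 8.65 in Klf4L, a part that was not tested. Of 12 embryonic stem cell genes that Klf2, Klf4 and Klf5 share, 0 passed limma in any comparison (1 at an unadjusted p under 0.05 in the cassettes and 0 in Klf4 alone against lacZ, and 3 in the cassettes against Klf4 alone), and their median was 0.35 for cassettes minus lacZ and 0.28 for cassettes minus Klf4 alone. Of the 6 endothelial markers, where Klf2 and Klf4 are known regulators, 2 were called in the cassettes against lacZ, beside 2.05% of all genes. Tek, the angiopoietin receptor, rose by 3.33 and Kdr fell by 0.52, to a dim 6.07 to 6.21 in the cassettes. The others were not called. Emcn differed by -1.23 (limma adjusted p = 0.051), Tie1 by 0.10, Pecam1 by 0.05 and Cdh5 by -0.05. Tek was also higher in the cassettes than in Klf4 alone, by 1.65, and Des fell by 1.45 in that comparison. Against lacZ, 0 of the 12 fibroblast markers passed in either group, with 5 at an unadjusted p under 0.05 in each. Of all genes, 15.5% did so in the cassettes and 11.5% in Klf4 alone. In Klf4 alone against lacZ, 0 endothelial and 0 smooth muscle markers passed, with 3 and 1 at an unadjusted p under 0.05. The keratinocyte and macrophage lists had 0 members past limma in any of the 3 group comparisons, with 2 keratinocyte markers at an unadjusted p under 0.05 in the cassettes against Klf4 alone.

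The genes whose profiles over the 11 arrays lay nearest to a member were found by the root mean square (RMS) difference of mean-centred log2 values, for the 4 members that span at least 1 log2 unit, among 18604 other named genes. For Klf6 they were Rnf24 (RMS 0.100), Bcl6 (0.107) and Gamt (0.132), and for Klf10 they were Ociad2 (0.131), Baiap2 (0.161) and Cltb (0.164). For Klf7 they were Pcp4 (0.137), Ms4a4d (0.152) and Psmb8 (0.167), and for Klf5 Ptchd4 (0.141), Aadat (0.164) and Cdh10 (0.182). Bcl6, a transcriptional repressor, read 8.06 in OK+9MS and 7.25 in OKMS, 8.54 in Klf4L and 8.50 in Klf4S, against 8.72 in lacZ, and so had OKMS lowest and lacZ highest as in Klf6. All profiles share the same 11 arrays and normalization.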

How the data were processed

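Total RNA of each culture was hybridised to 1 Affymetrix mouse gene array. The authors made the deposited log2 values for 28856 probe sets with RMA, per the submitters' processing notes, with no version stated. Platform annotation gave 1 gene symbol to 21789 probe sets, several to 1621 and none to 5446. Only the first were used, and the probe set with the highest mean was kept for each of 19938 genes, without a filter on dim genes. RMA compresses large differences, and signals under 6 were not told from background.

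Groups follow the transgene labels. Differences were fitted with limma 3.58.1 (R 4.3.3; lmFit, eBayes, Benjamini-Hochberg over all genes, 8 residual degrees of freedom), after tests on simulated data. Exact permutation tests used SciPy 1.17.1. Alternatives left out arrays or changed the arrays fitted, the prior, the dim filter, the probe set rule and the scaling. Named genes are the 8 members, up to 3 called genes of each list and comparison, and the 3 nearest profiles of members spanning at least 1. The members and the 12 lists were chosen with earlier results of these data known. Promoters came from RefSeq, with 6 of 8 members matched.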

Additional observations from a re-analysis of the deposited data

Results flagged for a closer look

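Among the 8 cassettes, Klf1 in OKMS (6.47) and Klf16 in STEMCCA (9.94) stood far from the other 7, with gaps of 0.619 and 0.583 of the group's range against Dixon's critical value of 0.526. Chance gives such a gap in about 1 in 20 groups, and 17 genes were examined.

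For 3 members the added residues went with opposite signs in the 2 pairs, and this difference between pairs was not tested. Klf9 differed by 0.216 in OK+9MS minus OKMS and by -0.055 in Klf4L minus Klf4S. For Klf7 the values were 0.037 and -0.048, and for Klf2 0.002 and -0.011.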

How the results depend on the processing

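Limits are few arrays, 1 for each construct, and a single lacZ array of another day without a sort. The 2 members called in the cassettes against lacZ (Klf2 and Klf7) became 0 with only the arrays of those groups fitted and 1 (Klf7) with an intensity trend and robust prior; leaving out 1 array gave 0 to 3 members. Over all genes 409 calls became 184 with only those arrays or without either Klf4 construct, 272 without OSKM, 241 without OK+9MS and 734 without STEMCCA. For Klf4 alone against lacZ, 149 calls became 0 with only those arrays, 93 without OK+9MS, 268 without MKOS, 40 without Klf4S and 36 without Klf4L. For the cassettes against Klf4 alone, 2885 became 104 without Klf4S and 92 without Klf4L. The count kept at 2 under the dim filter, both probe set rules and both scalings. Fewer arrays in a fit leave fewer residual degrees of freedom; otherwise the cause was not tested. In the cassettes against Klf4 alone the count by adjusted p was 0 in limma under every alternative. At an unadjusted p under 0.05 it was 1 (Klf6) both in limma and by the exact permutation test, where 0.0444 is the smallest p possible. By adjusted p the count of members was 0 in every alternative for Klf4 alone against lacZ and for the added residues.

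Of 240 single-member values with 1 array left out, 4 changed sign, and of 192 under other settings 1 did, all near 0. Klf9 in the cassettes against lacZ was -0.014 with arrays centred on their medians and ran from -0.044 to 0.067 with 1 array left out. Against Klf4 alone, the cassette difference ran from -0.041 to 0.011 for Klf2 and from -0.011 to 0.21 for Klf4. No paired analysis was possible because the labels give no replicate numbers to use as a block. The additive fit of the added residues pairs constructs by name, not by replicate.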
